A study of Mus musculus with 27 samples.

Results

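The genes described here are 10 genes that mark hepatocytes around the central vein and depend on Wnt signalling, namely Glul, Oat, Slc1a2, Rhbg, Axin2, Lgr5, Tbx3, Cyp2e1, Cyp1a2 and Rgn. They were listed by name out of 18820 genes with a value. No measured value entered the choice of the genes, but the list was drawn up with earlier results of these data known. For each gene the probe set of highest mean was taken, a step that does use the values. The study's minimum asks 5 or more arrays to exceed an intensity of 20, and all 10 genes met it, as did 13603 genes in all. None was at or under 20 in any liver. Liver RNA came from 27 male C57BL/6J mice aged 12 months, with 1 Affymetrix Mouse Gene 1.1 ST array per mouse. INT-fed mice (n = 7) alternated weekly between 40% calorie restriction and the MF diet ad libitum, and were killed in an MF week. CR-fed mice (n = 6) were given a daily portion of an AIN-93W-CR diet, set at 30% less energy than the mean control intake. MF-fed mice (n = 7) had free access to a medium-fat diet with 25% of energy from fat, and C-fed mice (n = 7) had free access to the AIN-93W diet. Diets started at 9 weeks of age. Every mouse was fasted for 4 h, received carboxymethyl cellulose without an agonist by gavage, and was fasted for a further 6 h. The CR portion was given at a fixed hour of the afternoon, while the other mice fed freely before the fast. The time since the last meal may thus differ between CR and the other diets and cannot be told apart from the diet.

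Hepatocytes differ along the path of blood through the lobule. Endothelial cells of the central vein release Wnt ligands and R-spondins, which stabilise beta-catenin in the neighbouring hepatocytes and switch on pericentral genes. The innermost rim of these cells takes up ammonium and glutamate and makes glutamine, while a wider pericentral zone holds cytochrome P450 enzymes. Periportal hepatocytes, at the other end, make urea and break down amino acids. Whole liver was measured, so fewer cells of a zone and less RNA per cell cannot be told apart. Hepatocyte genes were high throughout, the mean intensity of 9 hepatocyte markers lying between 8163 and 9470 over the livers.

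Of the 10 genes, 6 had their lowest diet mean in CR-fed mice and none had its highest there, while 5 had their highest mean in INT-fed mice. Over all 13603 genes, CR held the lowest mean for 36.3% and the highest for 36.3%, and INT the highest for 22.2%. These counts are a description and were not tested. The changes were modest. Cyp2e1 and Rhbg passed the test between CR- and C-fed mice, Cyp2e1 between CR- and MF-fed mice, and Cyp1a2, Tbx3 and Cyp2e1 between INT- and CR-fed mice. Tests were by limma over all 13603 genes, with Benjamini-Hochberg adjusted p under 0.05 as the threshold, and log2 fold changes are given as the first diet minus the second.

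The called genes with a promoter in the RefSeq table are Cyp2e1, called in 3 comparisons, and Cyp1a2, called in 1. Their promoters are shown because Wnt-responsive genes are read through TCF/LEF factors, which bind short heptamers. The windows are the 250 bases before the transcription start in GRCm38.p6, chr7:140763569-140763818 on the + strand for Cyp2e1 and chr9:57683656-57683905 on the - strand for Cyp1a2, written 5′ to 3′ along the gene. Capitals mark a heptamer match.
Cyp2e1: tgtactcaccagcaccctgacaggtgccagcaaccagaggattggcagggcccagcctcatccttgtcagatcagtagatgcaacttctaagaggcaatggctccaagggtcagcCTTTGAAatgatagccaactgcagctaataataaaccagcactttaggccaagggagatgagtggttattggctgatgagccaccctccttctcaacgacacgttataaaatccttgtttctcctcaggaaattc
Cyp1a2: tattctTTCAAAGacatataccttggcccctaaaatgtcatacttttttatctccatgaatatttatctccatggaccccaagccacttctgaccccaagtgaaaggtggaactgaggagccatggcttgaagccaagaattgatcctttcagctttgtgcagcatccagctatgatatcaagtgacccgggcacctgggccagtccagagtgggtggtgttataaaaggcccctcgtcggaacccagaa
The 4 heptamers AACAAAG and ATCAAAG and TACAAAG and TTCAAAG were searched on both strands. Cyp2e1 held TTCAAAG on the opposite strand, from 135 to 129 bases before the start, and Cyp1a2 held TTCAAAG on the gene's strand, from 244 to 238 bases before it. Promoters of 6 of the 10 genes were in the table, and 3 held a heptamer. The third was Slc1a2, with ATCAAAG from 207 to 201 bases before the start. The windows of Glul, Axin2 and Oat held none. Of all 32851 promoters of this length, 14.8% held a heptamer. A match describes letters in the window and is no evidence of binding.

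**Figure D1:**
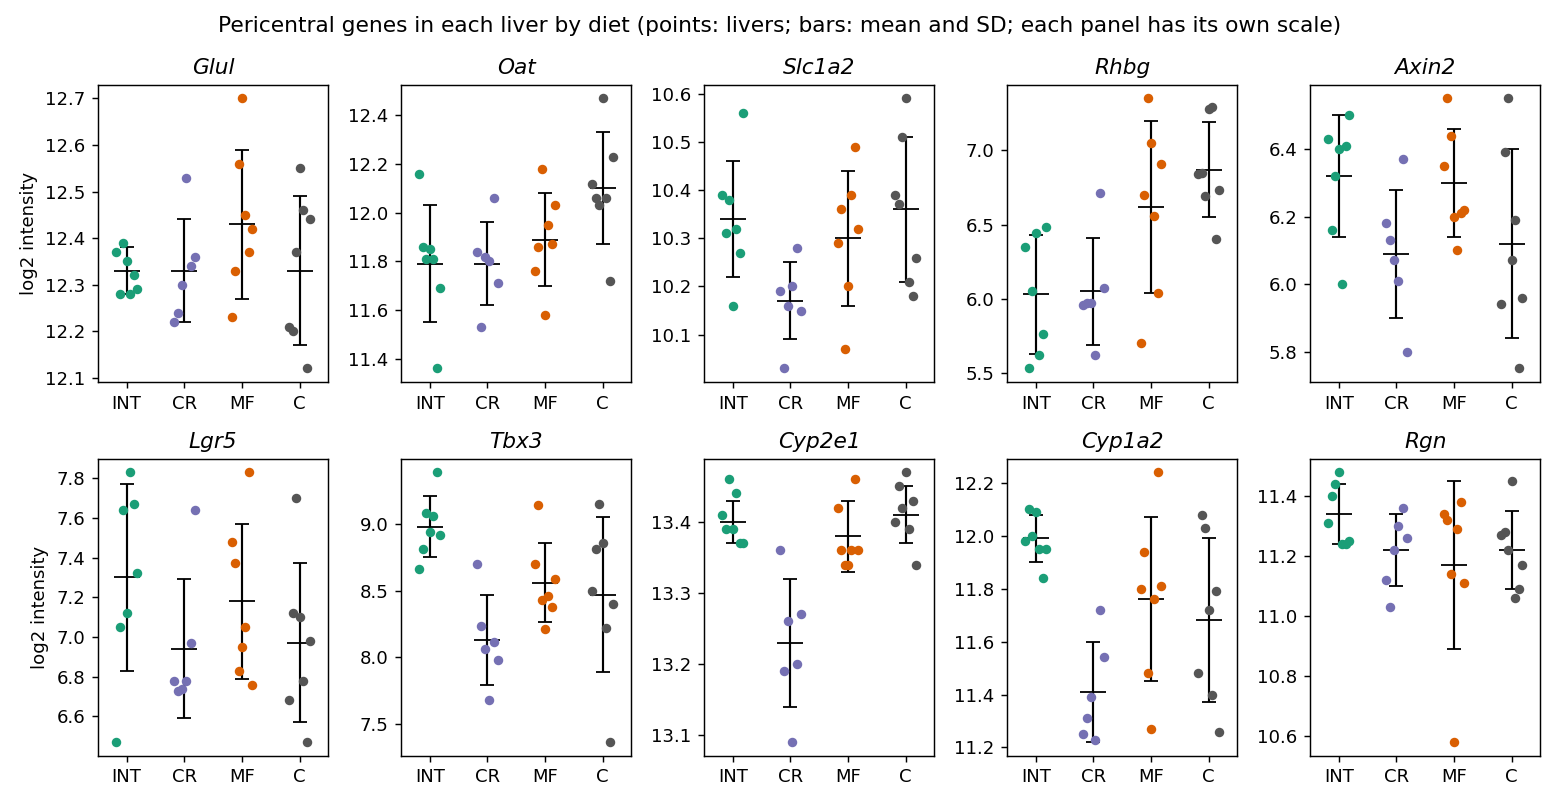
Log2 intensity of each of the 10 pericentral genes (y axis, own scale per panel) in INT-, CR-, MF- and C-fed mice (x axis), with 1 point per liver and bars for the mean and SD. The CR livers lie low for Cyp2e1 and Cyp1a2, both INT and CR livers lie low for Rhbg, and Glul overlaps between all diets.

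Glutamine synthesis and ammonium handling was represented by 4 genes. Glul encodes glutamine synthetase, which joins ammonia to glutamate and is the classical marker of the innermost pericentral hepatocytes. Its log2 value (lowest, median, highest) was 12.28, 12.32 and 12.39 in INT-fed mice, 12.22, 12.32 and 12.53 in CR-fed mice, 12.23, 12.42 and 12.70 in MF-fed mice and 12.12, 12.37 and 12.55 in C-fed mice. All diets overlapped, and Glul was not called in any of the 6 comparisons. The interval of 2 standard errors ran from -0.15 to 0.14 for CR against C and from -0.15 to 0.14 for INT against CR, so that the data leave room for a difference of up to about this size. Glul had a second probe set with a lower mean, 11.46 against 12.36 for the one used. The neighbouring probe-set numbers of the lower one named genes of chromosome 1 in 17 of 20 cases, the chromosome on which Glul lies, whereas 18 of 20 neighbours of the one used named genes of chromosome 11. The values of both probe sets correlated with r = 0.73 over 27 livers. The set used may not measure Glul alone, and which of them measures it better was not tested. The second one was not called in any comparison either, with differences between -0.15 and 0.09.

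Rhbg encodes an ammonium transporter of the plasma membrane. Rhbg had a log2 value of 5.53, 6.05 and 6.48 in INT-fed mice, 5.62, 5.97 and 6.71 in CR-fed mice, 5.70, 6.70 and 7.35 in MF-fed mice and 6.40, 6.84 and 7.29 in C-fed mice. In CR, 5 of 6 livers lay below every C liver, and in INT, 5 of 7 did. Rhbg was 1.76-fold lower in CR- than in C-fed mice (log2 fold change -0.82, standard error 0.22, limma adjusted p = 0.0103, exact two-sided permutation p = 0.0035). The difference between INT and C was as large (-0.83, standard error 0.21, exact permutation p = 0.00175) but did not pass limma's adjustment over all genes (adjusted p = 0.291), as was so for every gene of that comparison. Between INT and CR the difference was -0.02 with an interval of 2 standard errors from -0.46 to 0.43. Against MF-fed mice, the difference was -0.56 for CR (adjusted p = 0.0738) and -0.58 for INT (adjusted p = 0.371), and neither passed, although the CR difference did without MF replicate 1, MF replicate 6 or CR replicate 5, at a lowest adjusted p of 0.0146. The call between CR and C was lost within replicates 5 to 7, which hold 2 CR livers, at -0.41 (adjusted p = 0.591). Within replicates 1 to 4 the difference was -1.04 (adjusted p = 0.0264). With the Tukey comparison, p was 0.0115 before adjustment over all genes, and the call was lost after it (adjusted p = 0.0967).

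Oat encodes ornithine aminotransferase, a mitochondrial enzyme that turns ornithine towards glutamate. In log2 units Oat was 11.36, 11.81 and 12.16 in INT-fed mice, 11.53, 11.81 and 12.06 in CR-fed mice, 11.58, 11.87 and 12.18 in MF-fed mice and 11.72, 12.06 and 12.47 in C-fed mice. The order of the diets was that of Rhbg, with C highest and INT and CR lowest. Both differences from C were of the same size, -0.31 for CR (standard error 0.11, adjusted p = 0.0572) and -0.31 for INT (standard error 0.11, adjusted p = 0.546), and neither passed. The CR difference passed when array weights were used (adjusted p = 0.0133) and when MF replicate 4, INT replicate 1, INT replicate 6, C replicate 6 or CR replicate 5 was left out, the lowest adjusted p among these being 0.0193.

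Slc1a2 encodes the glutamate transporter GLT-1. Slc1a2 had a log2 value of 10.16, 10.32 and 10.56 in INT-fed mice, 10.03, 10.18 and 10.28 in CR-fed mice, 10.07, 10.32 and 10.49 in MF-fed mice and 10.18, 10.37 and 10.59 in C-fed mice. CR livers were lowest as a group but overlapped every other diet. The difference was -0.19 for CR against C (standard error 0.07, adjusted p = 0.0714) and 0.17 for INT against CR (standard error 0.07, adjusted p = 0.112), and neither passed. CR against C passed with array weights, without C replicate 6 (adjusted p = 0.0401) and within replicates 1 to 4 at -0.32 (adjusted p = 0.022), but not within replicates 5 to 7 (adjusted p = 0.996).

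Wnt feedback and transcription was represented by Axin2, Lgr5 and Tbx3. Tbx3, a T-box transcription factor and target of Wnt signalling in hepatocytes, showed the widest differences of the 3. Tbx3 had a log2 value of 8.66, 8.94 and 9.39 in INT-fed mice, 7.68, 8.09 and 8.70 in CR-fed mice, 8.21, 8.46 and 9.14 in MF-fed mice and 7.36, 8.50 and 9.15 in C-fed mice. Of the INT livers, 6 of 7 lay above every CR liver, while the C livers lay between 8.22 and 9.15 apart from C replicate 6 at 7.36. Tbx3 was 1.80-fold higher under INT than under CR (log2 fold change 0.85, standard error 0.20, limma adjusted p = 0.0039, exact permutation p = 0.00117). All 7 INT livers also exceeded the C mean, but the difference of 0.51 did not pass (adjusted p = 0.635), nor did 0.42 for INT against MF (adjusted p = 0.445) or -0.43 for CR against MF (adjusted p = 0.137). Within the replicate sets the INT to CR difference was 0.70 in replicates 1 to 4 (adjusted p = 0.0505) and 1.08 in replicates 5 to 7 (adjusted p = 0.0544), with adjusted p above the threshold in both. CR was not called against C (-0.34, standard error 0.20, adjusted p = 0.266), but was without C replicate 6 (-0.53, adjusted p = 0.026), and the difference was 0.05 within replicates 5 to 7 (adjusted p = 0.945). The INT to C difference was 0.04 in replicates 1 to 4 and 1.13 in replicates 5 to 7.

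Axin2, a scaffold of the beta-catenin destruction complex that Wnt signalling induces as negative feedback, moved less. Its log2 value was 6.00, 6.40 and 6.50 in INT-fed mice, 5.80, 6.10 and 6.37 in CR-fed mice, 6.10, 6.22 and 6.55 in MF-fed mice and 5.75, 6.07 and 6.55 in C-fed mice. All diets overlapped, and the difference of 0.23 for INT against CR did not pass (standard error 0.11, adjusted p = 0.179). Lgr5, a receptor for R-spondins, had a log2 value of 6.47, 7.32 and 7.83 in INT-fed mice, 6.73, 6.78 and 7.64 in CR-fed mice, 6.76, 7.05 and 7.83 in MF-fed mice and 6.47, 6.98 and 7.70 in C-fed mice. It was not called in any comparison, and its interval for INT against CR ran from -0.06 to 0.78, a width that leaves room for a difference as large as that of Cyp1a2. Tbx3, Axin2 and Lgr5 had the same order of diet means, INT, MF, C and CR from high to low, which was the order of Cyp1a2 too. Their spread between livers of 1 diet was wide for Lgr5 and Tbx3, with a within-diet SD of 0.41 and 0.39, and 0.21 for Axin2, beside a median of 0.16 over all genes.

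The remaining 3 genes belong to the wider pericentral zone. Cyp2e1 encodes a cytochrome P450 that oxidises ethanol and other small molecules. Its log2 value was 13.37, 13.39 and 13.46 in INT-fed mice, 13.09, 13.23 and 13.36 in CR-fed mice, 13.34, 13.36 and 13.46 in MF-fed mice and 13.34, 13.42 and 13.47 in C-fed mice. In CR, 5 of 6 livers lay below every C liver and every MF liver, and all 6 lay below every INT liver. The differences were small but tight, at -0.19 for CR against C (standard error 0.04, 1.14-fold, limma adjusted p = 0.00269, exact permutation p = 0.00117), -0.15 for CR against MF (adjusted p = 0.015, exact permutation p = 0.0035) and 0.18 for INT against CR (adjusted p = 0.00501, exact permutation p = 0.000583). INT did not differ detectably from C, with an interval of 2 standard errors from -0.09 to 0.07. Cyp2e1 ranked 10 of 13603 genes by mean value, near the top of the array's range, and whether saturation narrowed its differences was not tested. The call between CR and MF was lost under median centring (-0.11, adjusted p = 0.0952), with those diets alone (adjusted p = 0.0786) and without CR replicate 4 (adjusted p = 0.0529). Within replicates 1 to 4 the CR to C difference was -0.21 (adjusted p = 0.0492), the CR to MF difference -0.14 (adjusted p = 0.161) and the INT to CR difference 0.19 (adjusted p = 0.0873). Within replicates 5 to 7 they were -0.15, -0.15 and 0.16, none of which passed (adjusted p = 0.383, 0.41 and 0.383).

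Cyp1a2, a cytochrome P450 that metabolises caffeine and aromatic amines, separated INT from CR fully. Its log2 value was 11.84, 11.98 and 12.10 in INT-fed mice, 11.23, 11.35 and 11.72 in CR-fed mice, 11.27, 11.80 and 12.24 in MF-fed mice and 11.26, 11.72 and 12.08 in C-fed mice. The INT and CR livers did not overlap, and MF and C livers spread over both. Cyp1a2 was 1.50-fold higher under INT than under CR (log2 fold change 0.58, standard error 0.13, limma adjusted p = 0.00239, exact permutation p = 0.000583). CR was not called against MF (-0.35, adjusted p = 0.058) or against C (-0.28, adjusted p = 0.154), and INT was not called against C (0.31, adjusted p = 0.66). CR against MF passed with array weights (adjusted p = 0.00879) and without C replicate 2, C replicate 7, MF replicate 3, MF replicate 4 or CR replicate 5. Within replicates 1 to 4 the INT to CR difference was 0.75 (adjusted p = 0.0035), and within replicates 5 to 7 it was 0.29 (adjusted p = 0.45). The CR to C difference was -0.53 within replicates 1 to 4 (adjusted p = 0.0248) and 0.14 within replicates 5 to 7 (adjusted p = 0.737), opposite in sign.

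Rgn, which encodes regucalcin, a calcium-binding protein and gluconolactonase, had a log2 value of 11.24, 11.31 and 11.48 in INT-fed mice, 11.03, 11.24 and 11.36 in CR-fed mice, 10.58, 11.29 and 11.38 in MF-fed mice and 11.06, 11.22 and 11.45 in C-fed mice. The diets overlapped and Rgn was not called in any comparison, with differences from -0.05 to 0.17.

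**Figure D2:**
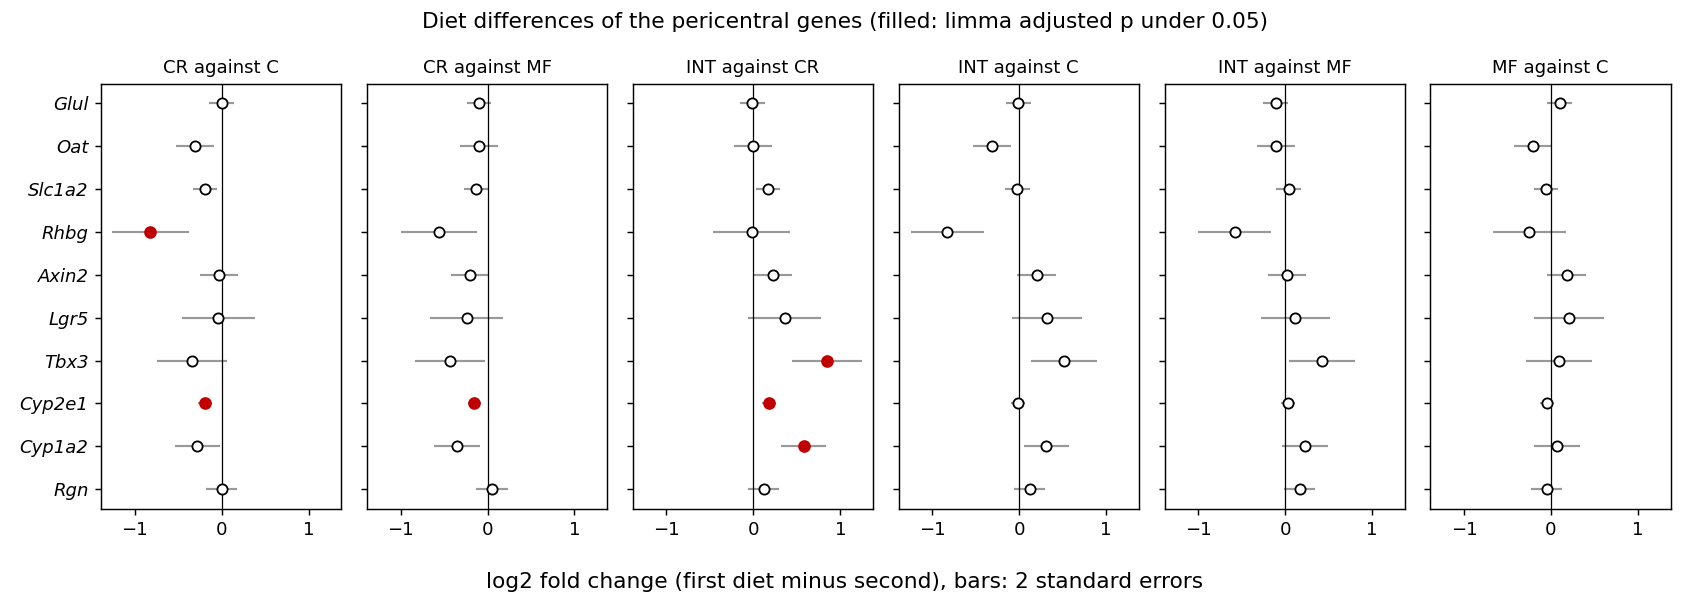
Log2 fold change (x axis, first diet minus second) of the 10 genes (rows) in the 6 diet comparisons, with bars of 2 standard errors; filled points had a limma adjusted p under 0.05. The 6 filled points are Rhbg and Cyp2e1 in CR against C, Cyp2e1 in CR against MF, and Tbx3, Cyp2e1 and Cyp1a2 in INT against CR.

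Read over the list, none of the 10 genes was called higher and 2 were called lower in CR- than in C-fed mice, where 8.46% of all genes were called higher, 9.05% lower and 17.5% in either direction. All 10 differences were below 0, with a median of -0.19, against a median of 0.004 over all genes. Those of Glul, Rgn, Axin2 and Lgr5 lay between -0.04 and 0, however, well within 2 standard errors of 0. Between CR and MF, none was called higher and 1 lower, where 8.57% of all genes were called higher, 11.2% lower and 19.8% in either direction, and the median was -0.18. Both counts are near the share of all genes called in either direction and are not a result about the list. Between INT and CR, 3 were called higher and none lower, where 8.37% of all genes were called higher, 6.62% lower and 15.0% in either direction, and the median was 0.17. Comparisons that share the CR mice are not independent of each other. In INT against C, INT against MF and MF against C, limma called 0 of the 10 genes and 0% of all genes in each, and the Tukey comparison called 0 too. At an unadjusted p under 0.05, limma counted 4, 2 and 0 of the 10 genes in these comparisons, against 922, 1479 and 464 of all genes (6.78%, 10.9% and 3.41%). In CR against C, CR against MF and INT against CR it counted 5, 4 and 5 of the 10, against 29.5%, 31.7% and 27.8% of all genes.

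The other Wnt pathway genes were counted by list, with the all-gene shares as above (17.5% in CR against C, 19.8% in CR against MF and 15.0% in INT against CR). Of the 12 Wnt ligands and R-spondins, none was called in CR against C or CR against MF. In INT against CR, 1 was called lower, namely Rspo3, an R-spondin of the central vein (-0.21, adjusted p = 0.04). The list was dim, its mean intensity per liver lying between 41.6 and 48.5, and Wnt11 was under 20 in all C livers. Whether changes in these ligands were missed at such low signal was not tested. Of 11 receptors and co-receptors tested, 2 were called higher in CR than in C, Fzd6 at 0.35 and Lgr4, a receptor of R-spondins, at 0.26. Fzd7, a Frizzled receptor, was called lower in CR than in MF (-0.45) and higher in INT than in CR (0.46), and 1 other receptor was called higher in CR than in MF. Of 21 genes of the destruction complex and Wnt inhibitors tested, CR against C gave 2 higher, Sfrp1, a secreted Wnt antagonist, at 0.75 and Apc, a destruction-complex scaffold, at 0.20, and 1 lower, Tle3, a corepressor, at -0.69. The same Sfrp1 and Tle3 were called in CR against MF (0.63 and -0.97) and in INT against CR (-0.42 and 0.57). Sfrp1 was dim, with a mean log2 value of 4.57 in MF- and 4.46 in C-fed mice. Of 11 genes around beta-catenin, 3 were called higher in CR than in C, the signal transducer Dvl1 at 0.30 and the coactivators Crebbp at 0.17 and Ep300 at 0.15. Ctnnb1, which encodes beta-catenin, had a log2 mean of 10.24 in INT-, 10.27 in CR-, 10.29 in MF- and 10.26 in C-fed mice. Ctnnb1 is named for its place in the pathway, outside the rule for named genes. Of 11 other Wnt target genes, none was called in CR against C or INT against CR, and 2 were lower in CR than in MF, Cldn2, a tight-junction protein, at -0.38 and Lect2, a secreted hepatocyte protein, at -0.20.

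Zonation beyond the 10 genes was counted in the same way. Of 24 other pericentral genes, 7 were called higher and 7 lower in CR than in C, with a median of -0.12. The higher ones included Csad, an enzyme of taurine synthesis, at 1.45, Fasn, the fatty acid synthase, at 1.30 and Avpr1a at 0.99. The lower ones included Sult5a1, a sulfotransferase, at -1.30 and Cyp2c54, a cytochrome P450, at -0.92. INT against CR gave 7 higher and 5 lower, with Sult5a1 at 1.63, Cyp2c54 at 1.23 and Fasn at -1.46. Of 22 periportal genes, 9 were called higher and 2 lower in CR than in C, with a median of 0.28, and 10 higher and 3 lower in CR than in MF, with a median of 0.29. INT against CR gave 1 higher and 10 lower, with a median of -0.32. Etnppl, a phospholyase, stood at 1.52, 1.89 and -1.26 in these 3 comparisons, Hal, the histidine ammonia-lyase, at 0.65, 0.84 and -0.52, and Gldc, of the glycine cleavage system, at 0.64, 0.72 and -0.74. Cyp2f2, a periportal cytochrome P450, went the other way at -0.65, -0.69 and 0.67. Aldh1b1 was called in INT against CR alone, at -0.88. Of 4 midlobular genes, 1 was called higher in CR than in C, Igfbp2, a binding protein of insulin-like growth factors, at 0.82, 2 higher in CR than in MF, and 1 lower in INT than in CR, Hamp2, a hepcidin gene, at -1.04.

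The list of glutamine and ammonia metabolism, which shares genes with the periportal list, had 8 of 25 genes called higher and 0 lower in CR than in C, 9 higher and 0 lower in CR than in MF, and 0 higher and 7 lower in INT than in CR. Slc1a5, a glutamine transporter, stood at 0.89, 0.80 and -0.87, Got1, the cytosolic aspartate aminotransferase, at 0.78, 1.37 and -1.16, and Asl, the urea-cycle argininosuccinate lyase, at 0.43, 0.59 and -0.49. The called genes of this list were higher in CR than in C, while Rhbg was lower and Glul was not called. Of 5 tested genes related to the aryl hydrocarbon receptor, which controls Cyp1a2, Nqo1, a quinone reductase, was called at 0.74 in CR against C and at -1.06 in INT against CR, and Cyp1a1, Cyp1b1 and Ahrr were at or under 20 in all livers.

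**Figure D3:**
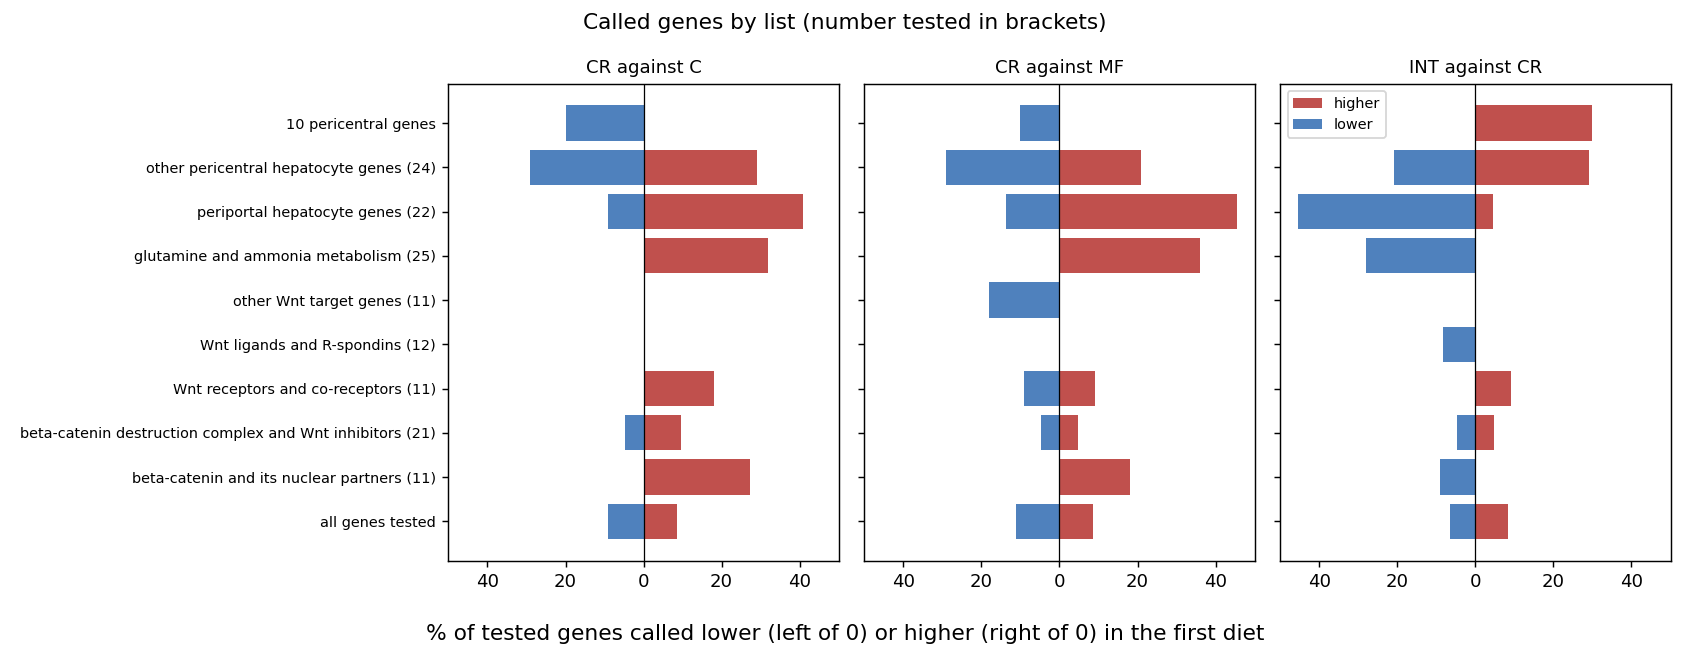
Share of tested genes called lower (left of 0) or higher (right of 0) in the first diet (x axis, %), by list (rows, number tested in brackets) for the 3 comparisons with CR. The 22 periportal genes and the 25 genes of glutamine and ammonia metabolism lean towards CR, and the last row gives all genes tested.

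Among markers of other liver cells, some of the 9 Kupffer cell and macrophage genes were called in the comparisons with CR. The mean intensity of the 9 per liver ran from 326 to 491 in INT-fed mice, from 502 to 769 in CR-fed mice, from 363 to 586 in MF-fed mice and from 437 to 667 in C-fed mice. Of the 9, 2 were called higher in CR than in C, 3 higher in CR than in MF and 6 lower in INT than in CR, against 17.5%, 19.8% and 15.0% of all genes called in either direction. Clec4f and Csf1r were called in all 3 comparisons, at 0.48, 0.48 and -0.44 for Clec4f and 0.43, 0.45 and -0.51 for Csf1r, while Cd68 was called in none, at -0.02, -0.04 and -0.29. No marker of the list was at or under 20 in all livers of a diet. The 15 endothelial markers, which include Rspo3, ran from 409 to 459 in INT-, 426 to 484 in CR-, 398 to 487 in MF- and 411 to 451 in C-fed mice, with 2 called higher in CR than in C, 2 higher and 1 lower in CR than in MF, and 3 lower in INT than in CR. The marker lower in CR than in MF was Lyve1, a sinusoidal endothelial marker, at -0.77 (adjusted p = 0.0316). The markers were named after their values were seen, and their part in the differences of the pericentral genes was not tested.

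The 10 genes did not vary as a single block between livers. With the diet means subtracted, 32 of the 45 pairs correlated positively over the 27 livers, and 3 exceeded r = 0.5, namely Cyp1a2 with Rgn at 0.62, Axin2 with Tbx3 at 0.60 and Glul with Rhbg at 0.51. The probe set used for Glul correlated at -0.46 with Cyp1a2 and -0.40 with Cyp2e1, whereas its other probe set, numbered among chromosome 1 genes, gave -0.21 with each. With Rhbg they gave 0.51 and 0.52, and with Oat 0.32 and 0.58. Rhbg and Lgr5 correlated at -0.35. Without subtraction, 10 pairs exceeded 0.5, led by Axin2 with Tbx3 at 0.66, Cyp2e1 with Cyp1a2 at 0.62 and Oat with Rhbg at 0.61. These points share 1 joint normalization, and the values are a description. The same counts for pairs of other genes were not made, so these counts are not a result about the list.

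**Figure D4:**
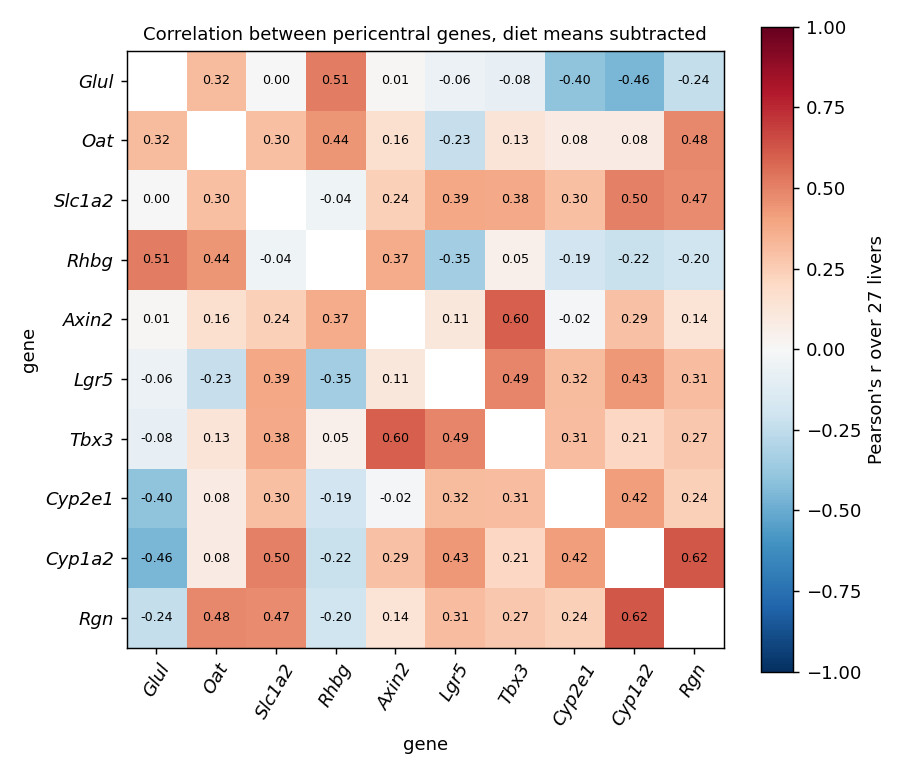
Pearson's r between each pair of the 10 genes over the 27 livers after the diet means were subtracted (colour scale from -1 to 1, value in each cell). Glul correlates with Rhbg at 0.51 and inversely with Cyp1a2 at -0.46 by the probe set used, and Cyp1a2 with Rgn at 0.62.

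Among 13593 other genes, those most like Glul over the 27 livers were Emp3 (r = 0.82), Srd5a3 (0.80) and Dap (0.80), and with diet means subtracted Emp3, Trp53i11 and Lrrc27 (each 0.82), all by the probe set used. By the other probe set they were Ube2e2 (0.80), Ube2v1 (0.76) and Flot2 (0.76), and after subtraction Ube2e2 (0.83), Psmc6 (0.82) and Cyp2c38 (0.80), so that the nearest genes depend on the probe set. Those most like Oat were Gstk1 (0.80), Dhrs7b (0.78) and Det1 (0.74). Cyp2e1 was most like Mup5 (0.90), Mup3 (0.90) and Sult2a8 (0.89), of which the Mup genes encode major urinary proteins, belong to a family of near-identical copies and may share signal. After subtraction its nearest genes were Slc25a2 (0.77), Klf1 (0.76) and Zscan26 (0.72). Axin2 was most like Iffo2 (0.74), 2310022B05Rik (0.65) and Hhat (0.63). After subtraction its nearest genes were Lrp5 (0.70), a Wnt co-receptor, Il3ra (0.68) and Drc7 (0.68). All these genes are the top of 13593 over 27 livers, and how high r would run by chance was not tested.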

How the data were processed

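Liver RNA of 27 mice was hybridised, 100 ng per mouse, to Affymetrix Mouse Gene 1.1 ST arrays, after an RNA integrity number above 8.0. The authors normalized all arrays together by RMA (robust multiarray average, named in the submitters' processing notes), and the deposited values are log2 intensities per probe set, background-corrected and quantile-normalized. Their methods describe probe sets for Entrez genes, whereas the table used has 35556 rows, each a probe set defined by Affymetrix. Those naming several genes (1881) or none (12457) were left out, and the highest-mean probe set was kept for 1386 genes with several. A mouse gene table of GRCm38.p6 matched 18790 of 18820 genes. Array medians ran from 5.21 to 5.27, arrays correlated at r = 0.982 to 0.992, and at most 138 values were identical between 2 arrays. Arrays carry no read depth, so the number of mice and the signal over background limit precision.

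Diets, taken from the labels, were compared by lmFit, contrasts.fit and eBayes of limma 3.58.1 (R 4.3.3), neither trended nor robust, over all 27 livers, with Benjamini-Hochberg adjustment over 13603 genes and a threshold of 0.05. The code was tested on simulated data. Exact two-sided permutation tests of single genes enumerated 1716 or 3432 splits and were not adjusted. Figures were drawn with matplotlib 3.10.9, and other values came from scipy 1.17.1, pandas 2.3.3 and numpy 2.4.6 under Python 3.11.15. The 10 genes and the lists were chosen with earlier results of these data known. Fold changes are given for a gene where limma's unadjusted p was under 0.05. The rule set per list was to name up to 4 called genes of largest change, and it was not kept throughout. Other values of the 10 genes are given as ranges or to compare diets of a gene already named. No block entered the main model. Replicates 1 to 4 and 5 to 7 differed in the interquartile range of their arrays (3.63 and 3.72, SD 0.03 each), and no label calls these sets batches, so values within each set are given. Which mouse was killed on which day is not given in the sources used here. Alternatives covered the intensity minimum, centring, cyclic loess, variance options, array weights, diets compared alone, blocks, the mean over probe sets, a Tukey comparison and each liver left out. The methods name a Tukey post-test. Here its p-values were also adjusted by Benjamini-Hochberg over all genes, a step that the methods do not describe, which makes a call harder.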

Additional observations from a re-analysis of the deposited data

Results flagged for a closer look

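Of 40 groups of livers (10 genes in 4 diets), 2 held a liver far from the others by Dixon's criterion, which chance alone meets in about 1 of 20 groups. Lgr5 was 7.64 in CR replicate 6, with the other CR livers between 6.73 and 6.97. Rgn was 10.58 in MF replicate 4, with the other MF livers between 11.11 and 11.38. Neither gene was called in any comparison.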

How the results depend on the processing

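The 3 calls between INT and CR were kept in every left-out liver, under both normalizations, both intensity minimums and all blocks, and fell to 1 within replicates 1 to 4 and 0 within replicates 5 to 7, where fewer livers entered. Between CR and C, the 2 calls became 5 with array weights, 4 within replicates 1 to 4, 0 within replicates 5 to 7 and 1 with the Tukey comparison, and ranged from 2 to 5 over the left-out livers, 5 without C replicate 6 (Cyp2e1, Rhbg, Oat, Slc1a2 and Tbx3) and 3 without MF replicate 4, INT replicate 1, INT replicate 6 or CR replicate 5. Between CR and MF, the 1 call became 0 under median centring, 2 with array weights, 0 with those diets alone and 0 within either replicate set, and ranged from 0 (without CR replicate 4) to 3 (without CR replicate 5), with 2 without C replicate 2, C replicate 7, MF replicate 1, 3, 4 or 6. The cause was not tested. Cyp1a2 between CR and C reversed to 0.14 within replicates 5 to 7, and Tbx3 to 0.05. The other 3 comparisons stayed at 0 calls among the 10 genes under every setting, and the second probe set of Glul, tried after the data had been seen, changed no count. With the replicate block the counts were 2, 1 and 3 and then 0, unchanged. With diet means subtracted, the 39 pairs of livers with the same replicate number correlated between -0.249 and 0.304. Their median was 0.081, against -0.013 for pairs of different diets with different numbers. For 11 of 27 livers, the closest liver among the other diets had the same replicate number, and for 2 the same mouse number. The counts that chance alone would give were not worked out. No label pairs the mice, and whether the replicate number marks something shared was not tested. Over all genes, CR against C gave 2382 calls, against 1226 within replicates 1 to 4, 497 within replicates 5 to 7 and 1231 with Tukey; CR against MF 2690, against 331 within replicates 5 to 7 and 1455 with Tukey; INT against CR 2039, against 1038, 347 and 1055. INT against MF gave 0, against 3 with array weights and 0 to 29 over the left-out livers, and MF against C 0, against 1 within replicates 1 to 4.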
